A study of Mus musculus with 12 samples.

Results

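The change shared over 3 experiments in mice by livers with Gdown1 deleted in hepatocytes was measured in all 12 of the 12 RNA-seq libraries of the study. Members were chosen by their labels: 6 libraries from livers with the deletion were set against 6 control libraries, 2 and 2 within each experiment, with the experiment as a block. All mice were of strain C57BL/6 and all groups carried the floxed alleles of Gdown1, whose gene is Polr2m. The 7-week experiment compared KO livers, which also carried Alb-Cre, with FF livers, which did not; both had p53. The 8-week experiment compared DKO livers, with Alb-Cre, with p53KO livers, and both groups were p53-/-. The tamoxifen experiment compared DKO TAM with p53KO TAM livers, both p53-/- and both collected 24 hours after tamoxifen, which switches on the inducible Alb-CreERT2 of the DKO TAM mice; their age is not given in the sources used here.

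Both forms of Cre are driven by the albumin promoter, so the deletion is directed at hepatocytes. Which other cells of the liver keep the floxed alleles was not measured. Every deleted group carried Cre and the genotypes of the control groups name none, so effects of Cre and of Gdown1 loss cannot be told apart. The experiments differ at once in p53, age and the time since deletion, and a difference between them cannot be assigned to any of these. The titles of the 7-week and tamoxifen libraries each carry a number of their own, whose meaning no label gives. Since no label says that the libraries of a group came from separate animals, p-values then measure only the spread between these libraries, which may be technical.

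Gdown1 is a protein that binds RNA polymerase II, the enzyme that transcribes protein-coding genes. In purified systems it competes with the initiation factor TFIIF for the polymerase and blocks initiation until the Mediator complex relieves the block, and it has also been found with polymerase paused downstream of promoters. The hepatocyte, the cell in which it was deleted here, spends much of its transcription on a small set of abundant mRNAs for plasma proteins and metabolic enzymes.

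Many abundant liver mRNAs were lower in deleted livers in all 3 experiments: those of plasma proteins, cytochromes P450, enzymes of amino acid breakdown, transporters and the male-biased major urinary proteins. Genes that were higher in all 3 included 35 of 40 mitosis genes examined, 9 of 36 listed p53 targets and Polr2a, the gene of the largest polymerase subunit. For the average deletion effect 4690 of 13693 genes tested (34.3%) passed an adjusted p of 0.05 in edgeR's quasi-likelihood test, 2295 higher (16.8%) and 2395 lower (17.5%); 987 (7.21%) and 565 (4.13%) of these differed by at least 2-fold. A gene was then counted as consistent if it passed that test and, within each experiment, both deleted libraries lay on the same side of both control libraries. By sign alone 6682 genes (48.8%) had the same direction in all 3 experiments, and in 2900 (21.2%), 1292 of them higher (9.44%), the groups did not overlap in any experiment. Consistency by both criteria held for 2788 genes (20.4% of those tested), 1235 higher (9.02%) and 1553 lower (11.3%). A stricter class, called singly and in the same direction in each of the 3 experiments, held 778 genes (5.68%), 271 higher (1.98%) and 507 lower (3.70%), all of them consistent genes. These counts became 149 and 327 without FF replicate 2 and 166 and 323 without p53KO TAM replicate 1, and the higher count became 161 without KO replicate 2 and 169 without p53KO TAM replicate 2.

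Levels are given as CPM, a gene's counts relative to its library's total, scaled by TMM, a method that takes most genes as unchanged, and effects as log2 fold changes, deleted against control, with their SE. Library totals were 4939408 to 8776369 counts, so 3 counts correspond to 0.342 to 0.607 CPM before TMM scaling. TMM divides these values by factors of 0.8256 to 1.413. The genes tested held 99.9% of the counts of 23420 genes. The median average effect over all genes tested was 0.04 with TMM and 0.49 when libraries were scaled by their totals alone, under which 7506 genes (54.8%) were called higher and 737 (5.38%) lower, and 4584 and 428 were consistent. The direction of small effects therefore depends on the scale, and 1225 of the higher and 428 of the lower genes were consistent under all 4 scalings tried.

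**Figure D1:**
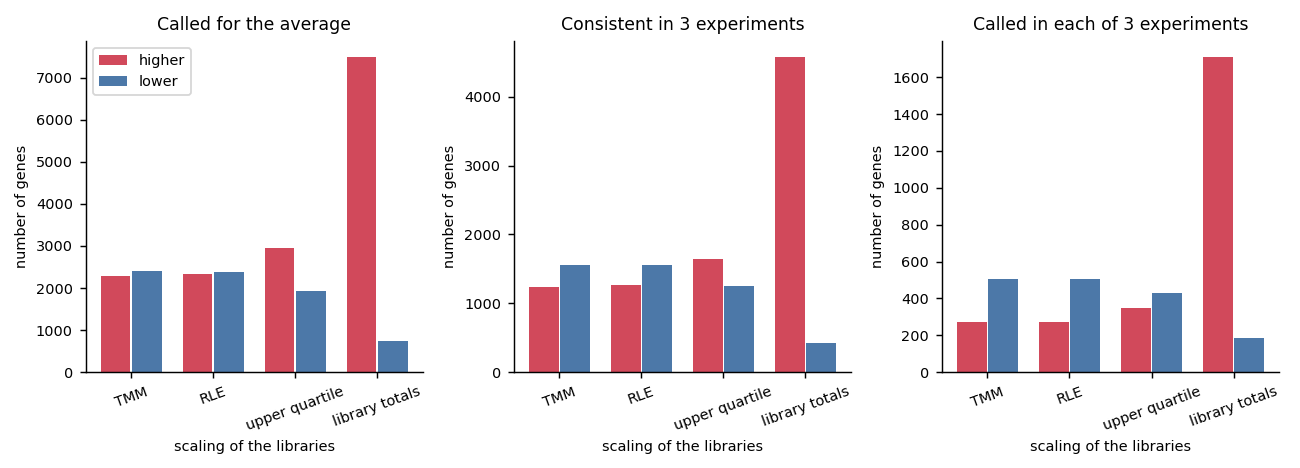
Number of genes (y axis) called for the average deletion effect, consistent in 3 experiments, and called in each of 3 experiments, under 4 scalings of the libraries (x axis); red bars are genes higher and blue bars genes lower in deleted livers. TMM gave 1235 consistent genes higher and 1553 lower, and scaling by library totals alone gave 4584 and 428.

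The promoters of 4 genes show the sequence context at both ends of the scale. Among consistent protein-coding genes with at least 5 CPM in the deleted or control livers of every experiment, they have the largest average effects for which a promoter was at hand, Hmmr and Zfr2 among those that rose and the urinary protein genes Mup7 and Mup14 among those that fell. Each runs 5′ to 3′ on the gene's strand from 250 bases before to 50 after the start site (RefSeq, GRCm38.p6). Capitals mark the motif TATAAA, found at many start sites, the box CCAAT of nuclear factor Y and the box GGGCGG of Sp1, each on either strand, so that ATTGG is the CCAAT box read on the opposite strand. Hmmr lies at chr11:40733388-40733687 on the minus strand, Zfr2 at chr10:81232913-81233212 on the plus strand, Mup7 at chr4:60070426-60070725 and Mup14 at chr4:61303949-61304248, both on the minus strand.
Hmmr: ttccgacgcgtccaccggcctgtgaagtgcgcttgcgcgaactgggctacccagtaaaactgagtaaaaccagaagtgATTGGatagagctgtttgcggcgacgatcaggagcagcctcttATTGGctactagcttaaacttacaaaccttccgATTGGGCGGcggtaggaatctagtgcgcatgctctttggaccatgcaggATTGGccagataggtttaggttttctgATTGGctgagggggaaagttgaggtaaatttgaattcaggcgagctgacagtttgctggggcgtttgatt
Zfr2: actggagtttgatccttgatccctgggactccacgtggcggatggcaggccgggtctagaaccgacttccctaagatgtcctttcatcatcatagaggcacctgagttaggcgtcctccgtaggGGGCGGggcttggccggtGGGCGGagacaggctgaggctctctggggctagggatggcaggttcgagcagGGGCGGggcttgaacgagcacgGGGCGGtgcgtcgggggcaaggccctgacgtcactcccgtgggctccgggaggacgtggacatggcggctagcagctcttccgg
Mup7: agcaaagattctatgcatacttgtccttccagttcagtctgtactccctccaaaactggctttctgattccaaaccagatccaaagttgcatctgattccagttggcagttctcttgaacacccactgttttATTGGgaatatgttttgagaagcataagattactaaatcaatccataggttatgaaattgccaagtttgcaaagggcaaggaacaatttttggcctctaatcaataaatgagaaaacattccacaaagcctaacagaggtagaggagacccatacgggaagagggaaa
Mup14: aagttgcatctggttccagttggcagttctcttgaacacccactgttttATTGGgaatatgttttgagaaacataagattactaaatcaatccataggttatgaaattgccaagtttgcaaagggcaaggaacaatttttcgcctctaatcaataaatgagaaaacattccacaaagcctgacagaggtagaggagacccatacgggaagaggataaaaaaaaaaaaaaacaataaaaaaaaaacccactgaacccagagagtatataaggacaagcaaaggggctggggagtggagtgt
The Hmmr promoter holds 5 CCAAT on the opposite strand and 1 GGGCGG, which overlaps 1 of them, and the Zfr2 promoter holds 4 GGGCGG. Those of Mup7 and Mup14 hold 1 CCAAT each and share 211 of 217 bases when 1 is shifted by 83 bases against the other.

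The promoters of consistent genes held CCAAT about as often as those of the genes tested, and those of higher genes the other motifs as well. TATAAA was more frequent in promoters of lower genes, most of all in those called lower in each experiment. The latter also held GGGCGG less often and had fewer CG dinucleotides. TATAAA on either strand stood in 7.51% of 906 promoters of consistent genes higher, 11% of 1146 promoters of consistent genes lower and 7.82% of 10087 promoters of genes tested, against 12.9% of all 16344 matched promoters. GGGCGG stood in 62.5%, 59.2%, 62.6% and 47.9% of these sets in the same order, and CCAAT in 38.9%, 38.7%, 38.6% and 38.8%. Among 377 promoters of genes called lower in each experiment, 14.9% held TATAAA and 51.7% GGGCGG, and their median number of CG dinucleotides was 14, against 20 for genes tested and 14 for all matched promoters. With TATAAA limited to the sense strand and to a first base 40 to 20 bases before the start, a window added after the data were seen, the shares were 0.993%, 2.53% and 1.52% for consistent higher, consistent lower and genes tested. These shares describe letters in a window and carry no test.

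The deleted gene itself fell on average and the gene of the largest polymerase subunit rose. Polr2m (chromosome 9, 71478437 to 71485983, minus strand, mm10) stood at 100.3 and 96.7 CPM in FF and 64.7 and 59.4 in KO livers. In the p53-/- livers of 8 weeks the values were 89.1 and 103 CPM in p53KO and 58.1 and 60.0 in DKO. After tamoxifen they were 75.9 and 78.7 in p53KO TAM and 65.9 and 54.6 in DKO TAM. No deleted library reached the level of any control library, and the average effect was -0.57 ± 0.09 (adjusted p = 0.00060); by experiment it was -0.67, -0.70 and -0.36, and the tamoxifen effect alone did not pass (adjusted p = 0.063). With library totals alone the average was -0.12 (adjusted p = 0.32). Reads from cells that keep the gene, and from any exons left in place, are included in these values. Polr2a stood at 88.3 and 94.1 CPM in FF and 331 and 297 in KO livers. The 8-week values were 113 and 119.9 CPM in p53KO and 297 and 313 in DKO livers, and the tamoxifen values 95.0 and 109 in p53KO TAM and 347 and 346 in DKO TAM livers. All 6 deleted libraries lay above all 6 control libraries, the average effect was 1.65 ± 0.10 (adjusted p = 3.1e-06), and the effects of 1.78, 1.39 and 1.77 in the 7-week, 8-week and tamoxifen experiments were each called. Trp53, the gene of p53, rose by 1.20 ± 0.16 (adjusted p = 0.00027), from 13.1 and 7.95 to 17.1 and 22.5 CPM in the 7-week experiment; in the p53-/- livers its counts, 3.07 and 2.79 against 8.39 and 8.13 CPM at 8 weeks, are RNA from a disrupted locus.

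Of 12 subunits of RNA polymerase II, 5 rose, none fell and 2 were consistent, with a median effect of 0.48. The second largest subunit, Polr2b, rose by 0.44 ± 0.09 (adjusted p = 0.0020), from 101 to 123 CPM over control libraries to 132 to 164 over deleted ones. Among 30 general transcription factors 8 rose and 1 fell, among 32 Mediator subunits 6 rose and 1 fell, and among 41 pausing, elongation and termination factors 8 rose and 5 fell, against 16.8% and 17.5% of all genes tested. Gtf2h2, a subunit of TFIIH, rose by 0.56 ± 0.09 and Taf12, a subunit of TFIID, by 0.55 ± 0.09. Cyclin K (Ccnk), the partner of the transcriptional kinases CDK12 and CDK13, rose by 0.53 ± 0.09, and Supt5, a subunit of the pausing factor DSIF, by 0.58 ± 0.11. These 4 genes were called in each of the 3 experiments. The elongation factor gene Eaf2 stood at 0.214 to 1.13 CPM over the 6 control and 2.12 to 5.19 over the 6 deleted libraries (2.21 ± 0.30, adjusted p = 0.00027). The liver-enriched TFIIS gene Tcea3 fell by 1.47 on the log2 scale (SE 0.16, adjusted p = 7.4e-05), from 59.3 to 89.8 to 17.7 to 35.2 CPM. Med16, the Mediator subunit that fell, lost its call with library totals (-0.20, adjusted p = 0.21, against -0.66 with TMM), under which 10 of the 12 polymerase subunits and 33 of the 41 pausing, elongation and termination factors were called higher, against 54.8% of all genes.

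**Figure D2:**
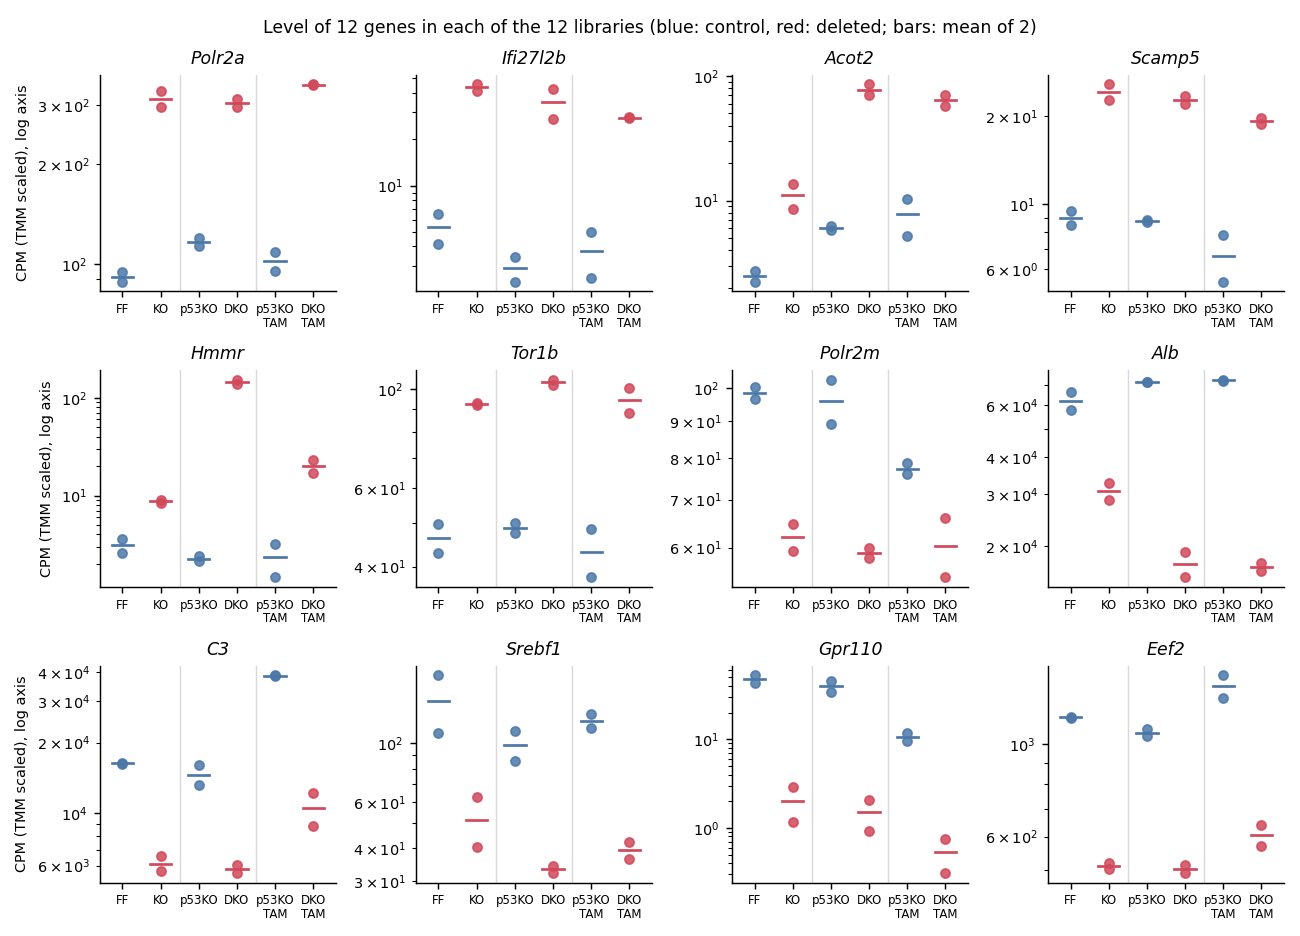
Level of 12 genes (y axis, TMM-scaled CPM, log axis) in each library of the 6 groups (x axis); blue points are control and red points deleted libraries, and bars are means of 2. Polr2a sits at 88.3 to 119.9 CPM in the controls and 297 to 347 in the deleted libraries, and in each panel the deleted libraries lie on 1 side of the controls of their experiment.

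Most genes of mitosis rose, by amounts that differed between experiments. Of 40 genes of G2/M and mitosis, 39 rose on average (16.8% of all genes) and none fell (17.5%). Among these 40 genes 35 were consistent higher (9.02%) and 19 were called higher in each experiment (1.98%). At 7 weeks 22 were called higher (6.92% of all genes), at 8 weeks 40 (25.7%) and after tamoxifen 29 (8.61%), and none was called lower. The median average effect was 2.90, and by experiment it was 1.37, 4.79 and 1.88. Hmmr, a spindle-associated protein, stood at 3.62 and 2.59 CPM in FF and 8.47 and 9.04 in KO livers. Levels of 2.39 and 2.15 CPM in p53KO and 152 and 139.7 in DKO livers were measured at 8 weeks. The p53KO TAM livers held 3.21 and 1.46 CPM and the DKO TAM livers 17.2 and 23.3. The groups did not overlap within any experiment, and the DKO libraries stood far above the other deleted libraries. Its average effect was 3.77 ± 0.58 (adjusted p = 0.00075), and its 3 effects of 1.52, 5.99 and 3.02 differed from each other (adjusted p = 9.5e-06). The kinetochore genes Cenpf and Cenpe, the spindle midzone gene Prc1 and the spindle assembly factor gene Tpx2 rose on average by 3.28 ± 0.55, 3.14 ± 0.56, 3.09 ± 0.57 and 3.05 ± 0.62. Of these, Prc1 alone was called in each experiment; Tpx2 had effects of 1.17, 5.17 and 2.04 with adjusted p-values of 0.36, 8.9e-05 and 0.051. Mybl2, a transcription factor of dividing cells, gave 13 counts over the control and 152 over the deleted libraries and was called in each experiment. H1fx, a linker histone, gave 8 counts in all in the 6 control libraries and 605 in the 6 deleted ones. Its level was 0 to 0.437 CPM over the controls and 3.54 to 20.1 over the deleted libraries, and the average effect of 5.14 ± 0.46 (adjusted p = 1.5e-05) depends on the prior count added to so few control reads.

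Of 40 genes of G1/S and DNA replication 20 rose (16.8% of all genes) and 2 fell (17.5%) on average. Among these 40 genes 10 were consistent higher (9.02%) and 1 was called higher in each experiment (1.98%). That gene was Brca1, which acts in DNA repair. It rose by 2.12 ± 0.39 (adjusted p = 0.0019), with effects of 1.88, 3.78 and 0.82. Pcna, the sliding clamp of DNA replication, rose by 0.94 ± 0.17 on average and was called at 7 and 8 weeks; after tamoxifen it stood at 26.4 and 26.4 CPM in DKO TAM and 21.3 and 20.3 in p53KO TAM livers (adjusted p = 0.094). At 8 weeks 34 of the 40 were called higher (25.7% of all genes tested), at 7 weeks 8 (6.92%) and after tamoxifen 5 (8.61%).

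Of 36 genes listed as p53 targets, 18 rose (16.8% of all genes) and 1 fell (17.5%) on average (median 0.82). On this list 9 were consistent higher (9.02%), although 4 of the 6 groups lack p53. The number called higher was 26 at 7 weeks, with p53 (6.92% of all genes). In the p53-/- experiments it was 17 at 8 weeks (25.7%) and 7 after tamoxifen (8.61%), and 6 (25.7%) and 1 (10.1%) were called lower. Gtse1, a regulator of p53 and of microtubules in G2, stood at 1.13 and 2.07 CPM in FF and 10.3 and 16.0 in KO livers. The p53KO livers held 1.37 and 0.429 CPM and the DKO livers 10.5 and 13.4. In p53KO TAM livers it was 0.728 and 0.626, and in DKO TAM livers 3.23 and 3.88. The groups did not overlap in any experiment, and the average effect was 3.06 ± 0.28 (adjusted p = 1.7e-05). The death receptor gene Tnfrsf10b gave 13 counts over the control and 268 over the deleted libraries; its CPM was 15.8 and 17.9 in KO, 2.46 and 2.57 in DKO and 1.15 and 1.5 in DKO TAM livers, and at most 0.904 in any control. Eda2r, a death receptor and p53 target, passed for the average (5.17, adjusted p = 3.3e-05) through the 7-week livers alone: KO livers held 32.9 and 74.0 CPM and FF livers 2.49 and 0.518, while each p53-/- library held 0 or 1 count.

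Outside these groups, the largest consistent increases were in genes of diverse function. Ifi27l2b, of a family of interferon-inducible genes, rose from 2.36 to 6.55 CPM over the control to 27.1 to 45.7 over the deleted libraries (3.14 ± 0.20, adjusted p = 3.1e-06), with effects of 3.06, 3.57 and 2.82. The list of 29 interferon response genes had 2 members that rose and 5 that fell on average, against 16.8% and 17.5% of all genes. At 7 weeks 10 were called lower (7.88% of all genes) and at 8 weeks 14 higher (25.7%). Ptprz1, a receptor tyrosine phosphatase best known from brain, gave 17 counts over the control and 374 over the deleted libraries. Zfr2, a zinc finger RNA-binding protein, stood at 0.173 to 1.02 CPM over the control and 5.42 to 8.99 over the deleted libraries. Neto2, an auxiliary subunit of kainate receptors, rose by 3.02 ± 0.40 (adjusted p = 0.00029) and was called at 7 and 8 weeks but not after tamoxifen (adjusted p = 0.11). The most abundant consistent genes that rose included Cyp4a10 (1.26 ± 0.20), Cxadr (0.69 ± 0.16) and Myh9 (0.55 ± 0.15). Cyp4a10 is an omega-hydroxylase of fatty acids, Cxadr a cell adhesion receptor and Myh9 a non-muscle myosin. Taken singly, Cyp4a10 was called at 7 weeks alone, and Cxadr and Myh9 at 8 weeks alone. For the average, the adjusted p of Myh9 of 0.013 became 0.0505 without the 7-week experiment.

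Abundant secreted proteins fell. Albumin mRNA (Alb) stood at 66287 and 57756 CPM in FF and 28609 and 32815 in KO livers. In the p53-/- livers of 8 weeks the values were 71558 and 71735 CPM in p53KO and 15744 and 19209 in DKO. After tamoxifen they were 72367 and 72970 in p53KO TAM and 17619 and 16501 in DKO TAM. All 6 deleted libraries lay below all 6 controls, and the average effect was -1.72 ± 0.25 (adjusted p = 0.00039). As a share of all counts, which needs no scaling, albumin took 4.93% to 6.27% of a control library and 1.80% to 3.33% of a deleted library. The mean difference was -3.36 percentage points (exact permutation test within experiments, two-sided, p = 0.00926, the smallest that 216 arrangements allow). The 100 genes most abundant in the controls of the other experiments took 37.1% to 40.4% of a control and 22.0% to 31.1% of a deleted library, a mean difference of -10.9 percentage points with the same p. In whole liver, fewer hepatocytes and less mRNA per hepatocyte cannot be told apart.

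Of 23 complement components and inhibitors, 18 fell (17.5% of all genes) and none rose (16.8%), with a median of -0.82. Of these genes 16 were consistent lower (11.3%) and 10 were called lower in each experiment (3.70%). The central component C3 stood at 16268 and 16341 CPM in FF and 5675 and 6564 in KO livers. The 8-week values were 13238 and 15996 CPM in p53KO and 6015 and 5599 in DKO livers, and the tamoxifen values 38257 and 38576 in p53KO TAM and 8840.2 and 12201 in DKO TAM livers. Within each experiment the deleted libraries were lower and did not overlap the controls, although DKO TAM livers still held more C3 mRNA than KO or DKO livers; the average effect was -1.54 ± 0.19 (adjusted p = 0.00016). Masp1, a protease of the lectin pathway, fell by 1.39 on the log2 scale (SE 0.09) with effects of -1.16, -1.55 and -1.45. Of 27 coagulation factors and inhibitors 20 fell and none rose (median -0.84), but 5 were called lower at 7 weeks (7.88% of all genes), 27 at 8 weeks (25.7%) and 20 after tamoxifen (10.1%). Factor XI (F11) was among the 5 called in each experiment, with 189 to 319 CPM over control and 27.6 to 70.4 over deleted libraries (-2.47 ± 0.23, adjusted p = 2.0e-05).

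Of 30 carriers and other plasma proteins 25 fell (17.5% of all genes) and none rose (16.8%), with a median of -0.99. Transferrin (Trf) stood at 9469 to 11613 CPM over control and 3204 to 6928 over deleted libraries (-1.04 ± 0.18, adjusted p = 0.0012). The vitamin E carrier afamin (Afm) fell by 1.90 on the log2 scale (SE 0.13) and the hyaluronan-binding inter-alpha-trypsin inhibitor chain Itih3 by 2.10 (SE 0.17). The protease inhibitors Pzp and Mug1, related to alpha-2-macroglobulin, fell with effects of -0.61, -2.23 and -1.38 and -1.41, -4.01 and -1.97, in both cases largest at 8 weeks. Serpina1e, an alpha-1-antitrypsin gene, stood at 6718 and 7739.8 CPM in FF and 1781 and 2150 in KO livers. Levels of 6759.9 and 7516 CPM in p53KO and 25.9 and 42.5 in DKO livers were measured at 8 weeks. The p53KO TAM livers held 8689.6 and 10834 CPM and the DKO TAM livers 779 and 1032. The groups did not overlap in any experiment and the 3 effects differed (adjusted p = 2.2e-07); Serpina1 genes are near-identical copies, so the split of reads between them is uncertain. C-reactive protein (Crp) fell by 2.46 (SE 0.16), while the list of 20 acute phase genes had 4 members lower and 2 higher, a share near that of all genes. Of 22 apolipoproteins and other genes of lipoprotein handling 12 fell and 4 rose (median -0.51). Hepatic lipase (Lipc) fell by 1.30 (SE 0.10), whereas Apoc2, the activator of lipoprotein lipase, rose by 1.24 ± 0.16. Apoa4, an apolipoprotein of intestine and liver, rose by 3.07 ± 0.33, from 29.6 to 286 CPM over control to 385 to 1056 over deleted libraries. With library totals alone 8 of this list were called higher and 8 lower, against 54.8% and 5.38% of all genes. On that scale 13, 15 and 15 members of the coagulation, complement and carrier lists were lower, and 2, 1 and 1 higher.

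Genes with male-biased expression in mouse liver gave the largest decreases. Sex was not a term of the model, and whether it was matched between the groups was not tested. Of 24 tested, 20 fell (17.5% of all genes) and none rose (16.8%) on average. Among these 24 genes 17 were consistent lower (11.3%) and 11 were called lower in each experiment (3.70%). The median effect was -3.62 for the average and -2.92, -6.28 and -1.86 by experiment. After tamoxifen 11 were called lower (10.1% of all genes) and 2 higher (8.61%). With library totals alone 20 were also called lower for the average. Mup7, a major urinary protein, stood at 1296 and 3170 CPM in FF and 5.93 and 27.9 in KO livers. The p53KO livers held 1919 and 2328 CPM and the DKO livers 0.678 and 0.856. In p53KO TAM livers it was 14.7 and 45.9, and in DKO TAM livers 3.65 and 1.75. The groups did not overlap within an experiment, but the p53KO TAM controls already held far less than the FF and p53KO controls, and the tamoxifen effect alone did not pass (adjusted p = 0.071). Mup1, Mup14 and Mup12 had the same pattern, with average effects of -7.74 ± 0.86, -7.15 ± 0.84 and -6.89 ± 0.87; Mup genes are near-identical copies whose reads may be shared or lost. Mup21, a more diverged member, was called in each experiment (-3.50, -7.45 and -2.64). The male-specific steroid reductase Hsd3b5 stood at 378 and 316 CPM in FF and 30.2 and 4.23 in KO livers. In the p53-/- livers of 8 weeks the values were 308 and 326 CPM in p53KO and 0.17 and 0.171 in DKO. After tamoxifen they were 9.03 and 42.2 in p53KO TAM and 0.521 and 0 in DKO TAM. It was lower in every deleted library than in the controls of its experiment (-6.22 ± 0.93, adjusted p = 0.00070). The organic anion transporter Slco1a1 fell in each experiment (-3.70, -4.61 and -2.03) and the glutathione transferase Gstp1 did as well (-1.87, -2.67 and -1.21). Female-biased genes had no common direction: of 25, 8 rose and 3 fell on average, 1 was consistent each way, 11 were called higher at 8 weeks (25.7% of all genes) and 10 lower after tamoxifen (10.1%).

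Enzymes and transporters of drug, amino acid and bile acid metabolism were lower in deleted livers. Of 32 cytochrome P450 genes of families 1 to 3, 22 fell (17.5% of all genes) and 3 rose (16.8%), and 18 were consistent lower (11.3%). Their median effect was -1.25. Cyp2c29 stood at 2065 to 7384 CPM over control and 159.7 to 1069.8 over deleted libraries (-3.08 ± 0.26), and Cyp2c70, an enzyme of muricholic acid synthesis, at 695 to 1089 and 85.8 to 270 (-2.57 ± 0.20). Of 39 conjugating enzymes 20 fell and 4 rose (median -0.70); the phenol sulfotransferase Sult1a1 fell by 1.19 (SE 0.10) and the methyltransferase Inmt by 3.31 (SE 0.33), both in each experiment. Of 45 genes of amino acid catabolism and the urea cycle 35 fell and none rose (median -1.01). Among these 45 genes 24 were consistent lower (11.3% of all genes) and 10 were called lower in each experiment (3.70%). Histidine ammonia-lyase (Hal) stood at 483 and 552 CPM in FF and 85.4 and 189 in KO livers. The 8-week values were 456 and 528 CPM in p53KO and 27.4 and 39.4 in DKO livers, and the tamoxifen values 752 and 833 in p53KO TAM and 74.0 and 58.7 in DKO TAM livers. The groups did not overlap and the average effect was -3.14 ± 0.34 (adjusted p = 7.0e-05); the next enzyme of histidine breakdown, urocanase (Uroc1), fell by 2.08 (SE 0.22) and adenosylhomocysteinase (Ahcy) by 2.03 (SE 0.21). Of 25 genes of bile acid synthesis and transport 17 fell and none rose (median -1.07), among them the conjugating enzyme Baat (-2.05 ± 0.26) and the transporter Slco2b1 (-1.76 ± 0.15). With library totals alone the numbers called lower and higher were 19 and 5 for cytochromes P450, 15 and 7 for conjugating enzymes, 28 and 2 for amino acid catabolism and 13 and 3 for bile acid genes, against 5.38% and 54.8% of all genes.

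In the lists of lipid synthesis and of sugar metabolism more members were called lower than higher with TMM, and a few genes of fatty acid handling rose. Srebf1, the transcription factor of lipogenic genes, stood at 181 and 109 CPM in FF and 40.3 and 62.3 in KO livers. Levels of 85.5 and 111 CPM in p53KO and 34.1 and 32.3 in DKO livers were measured at 8 weeks. The p53KO TAM livers held 129 and 115 CPM and the DKO TAM livers 42.3 and 36.4. The groups did not overlap. With TMM its 3 effects of -1.50, -1.56 and -1.63 were among the most even of all genes that changed at least 2-fold. Of 25 genes of fatty acid and triglyceride synthesis 11 fell (17.5% of all genes) and 4 rose (16.8%), with a median of -0.29. The desaturase Scd1 fell by 3.06 (SE 0.40), the lipogenic regulator Thrsp by 3.26 (SE 0.37) and the acetyl-CoA carboxylase Acacb by 2.42 (SE 0.16), each in each experiment. Of 24 genes of cholesterol synthesis 15 fell and none rose (median -0.78), including Fdps (-2.02 ± 0.20) and the sterol-regulated Insig1 (-1.62 ± 0.23). Of 41 genes of fatty acid oxidation and ketogenesis 7 rose and 9 fell, shares near those of all genes. Those that rose included the acyl-CoA thioesterase Acot1 (2.36 ± 0.20) and Hadhb, a subunit of the mitochondrial trifunctional protein (0.76 ± 0.12). The mitochondrial thioesterase Acot2 stood at 2.71 and 2.25 CPM in FF and 13.7 and 8.65 in KO livers. The p53KO livers held 5.8 and 6.22 CPM and the DKO livers 69.8 and 85.4. In p53KO TAM livers it was 10.3 and 5.22, and in DKO TAM livers 70.8 and 56.8. It rose without overlap in each experiment (3.09 ± 0.24, adjusted p = 7.1e-06); Acot1 and Acot2 are close copies and may share reads. Of 26 genes of glucose, glycogen and fructose metabolism 13 fell and 2 rose (median -0.53). The glucokinase regulator Gckr fell by 1.75 (SE 0.14) and the glycogen branching enzyme Gbe1 by 1.47 (SE 0.15). Of 19 glycolytic isozymes and transporters typical of cells other than adult hepatocytes 6 rose and none fell, among them the lactate transporter Slc16a1 (1.42 ± 0.17). With library totals alone the synthesis list had 10 members called in each direction and the sugar list 8, and the oxidation list had 23 higher and 4 lower, against 54.8% and 5.38% of all genes.

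Transcription factors and genes of protein folding and translation fell by smaller amounts, which depended on the scale. Of 35 hepatocyte transcription factors 16 fell (17.5% of all genes) and 1 rose (16.8%), with a median of -0.41. In each experiment 1 was called lower (3.70%). With library totals alone 6 fell (5.38% of all genes) and 7 rose (54.8%). Foxa1, a pioneer factor of liver, fell by 0.91 on average (SE 0.18), with -0.27 after tamoxifen (adjusted p = 0.30). Of 31 genes of endoplasmic reticulum folding and stress 14 fell (17.5% of all genes) and 1 rose (16.8%). With library totals 4 of them fell (5.38%) and 6 rose (54.8%). The stress transcription factors Xbp1, Atf4 and Atf5 fell by 0.91, 0.82 and 0.92 (SE 0.09, 0.09 and 0.09) and Herpud1, a factor of protein degradation, by 1.49 (SE 0.20), each in each experiment, while the stress-induced Atf3 rose by 1.73 ± 0.25. Of 59 cytosolic ribosomal protein genes 29 fell and none rose with TMM (median -0.33), and with library totals 10 were called higher and none lower, where 54.8% of all genes were higher. Rpl8 and Rps6 were called lower in each experiment with TMM (-0.60 ± 0.08 and -0.74 ± 0.12), and both calls were lost with library totals (adjusted p = 0.22 and 0.085). Elongation factor 2 (Eef2) stood at 1042 to 1455 CPM over control and 492 to 639.9 over deleted libraries (-1.15 ± 0.11, adjusted p = 2.5e-05), and this decrease was called under all 4 scalings. Of 48 nuclear genes of oxidative phosphorylation 1 rose and 6 fell on average, but 35 were called lower at 8 weeks (25.7% of all genes) and 12 higher after tamoxifen (8.61%). With library totals 33 were called higher for the average, against 54.8% of all genes.

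**Figure D3:**
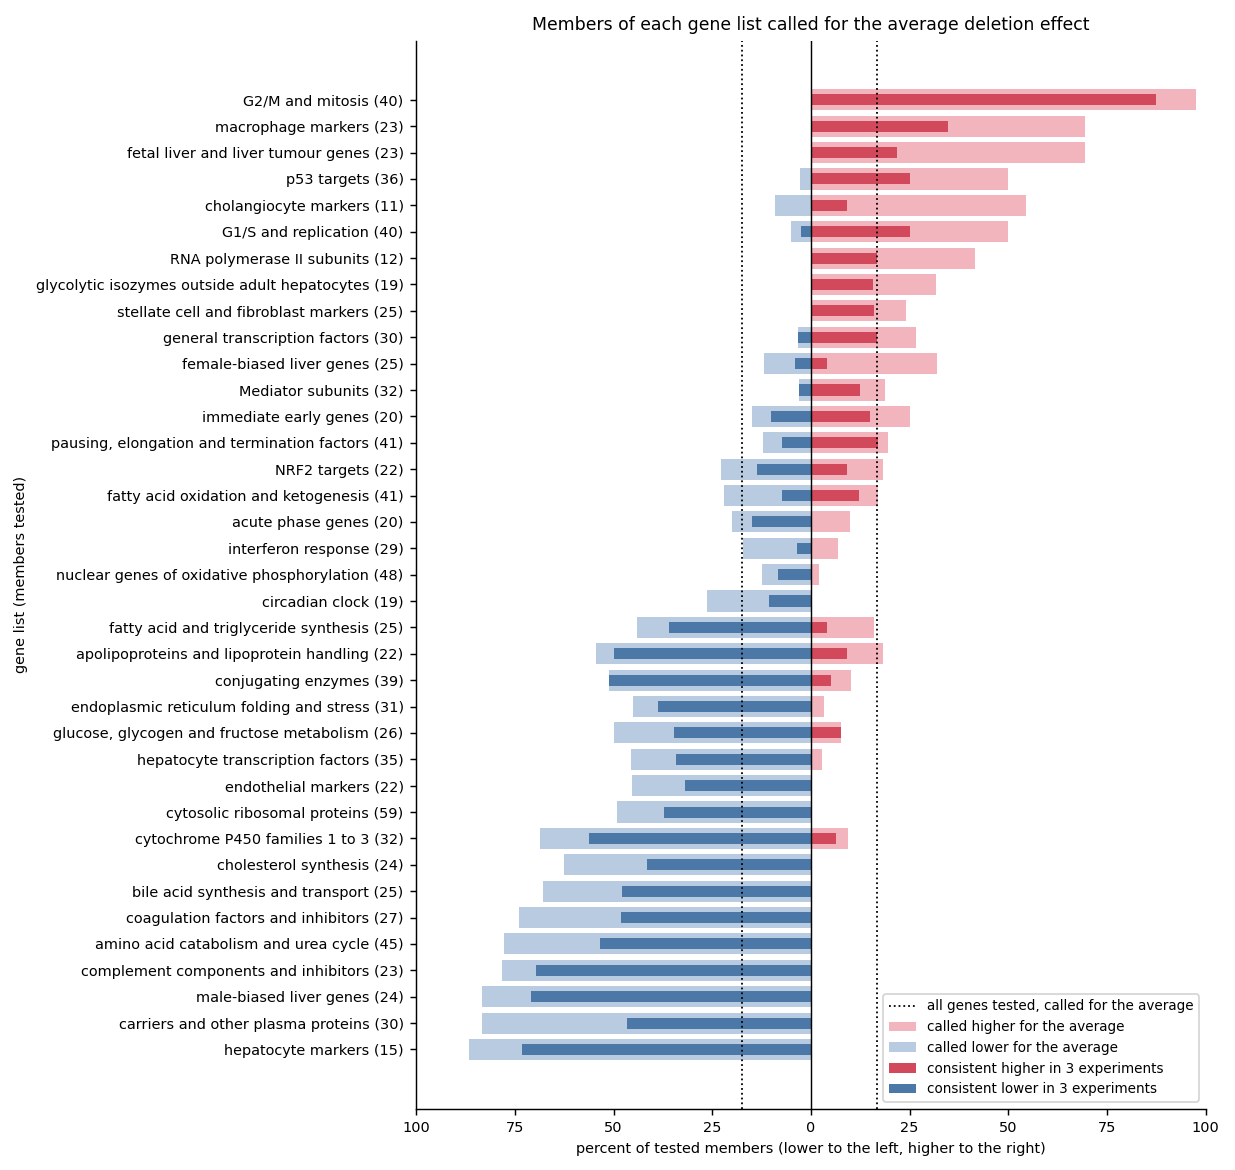
Percent of tested members (x axis) of each gene list with at least 10 members tested (y axis, number tested in brackets) that were called for the average deletion effect, higher to the right and lower to the left; dark bars are the members consistent in 3 experiments, and dotted lines are the shares of all genes tested, 16.8% and 17.5%. G2/M and mitosis reaches furthest to the right, with 39 of 40 members called higher, and hepatocyte markers furthest to the left, with 13 of 15 called lower.

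Some genes changed by nearly the same factor in all 3 experiments on the TMM scale. With library totals alone the median effect of all genes was 0.28 at 7 weeks, 0.78 at 8 weeks and 0.36 after tamoxifen. How even and how large an effect is therefore depends on the scale. Gpr110, an adhesion G-protein coupled receptor, stood at 52.4 and 43.5 CPM in FF and 2.88 and 1.15 in KO livers. In the p53-/- livers of 8 weeks the values were 34.5 and 44.8 CPM in p53KO and 0.933 and 2.05 in DKO. After tamoxifen they were 9.47 and 11.9 in p53KO TAM and 0.312 and 0.751 in DKO TAM. The controls of the tamoxifen experiment were lower than the other controls, yet the effects were -4.52, -4.71 and -4.32 and the average was -4.57 ± 0.23 (adjusted p = 1.0e-06). Among genes changed at least 2-fold, the torsin ATPase Tor1b (0.99, 1.08 and 1.14), the vesicle membrane protein Scamp5 (1.44, 1.38 and 1.51), the ubiquinone synthesis enzyme Coq6 (1.11, 1.14 and 1.05) and the kinesin Kif5a (1.74, 1.57 and 1.68) were the most even protein-coding genes of those that rose. Of those that fell, the most even besides Srebf1 were the selenocysteine lyase Scly (-1.01, -1.04 and -1.03), the gamma-secretase activator gene Pion (-1.32, -1.27 and -1.35), ferritin light chain Ftl1 (-1.03, -1.04 and -1.11) and Eef2 (-1.18, -1.08 and -1.18). Tor1b stood at 37.9 to 50.2 CPM over control and 88.5 to 105 over deleted libraries, and Scamp5 at 5.43 to 9.49 and 18.9 to 25.8. The carboxylesterase Ces3b, the lectin Clec2h, the sulfotransferase Sult5a1 and the transporter Slc22a28 also fell in each experiment. Their average effects were -4.64 ± 0.71, -4.01 ± 0.44, -5.32 ± 0.42 and -4.14 ± 0.58. Sult5a1 and Slc22a28 had 2 counts each in all in DKO livers, so the size of their 8-week effects (-7.52 and -7.56) depends on the prior count. Over all 6 deleted libraries they had 16 and 55 counts.

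**Figure D4:**
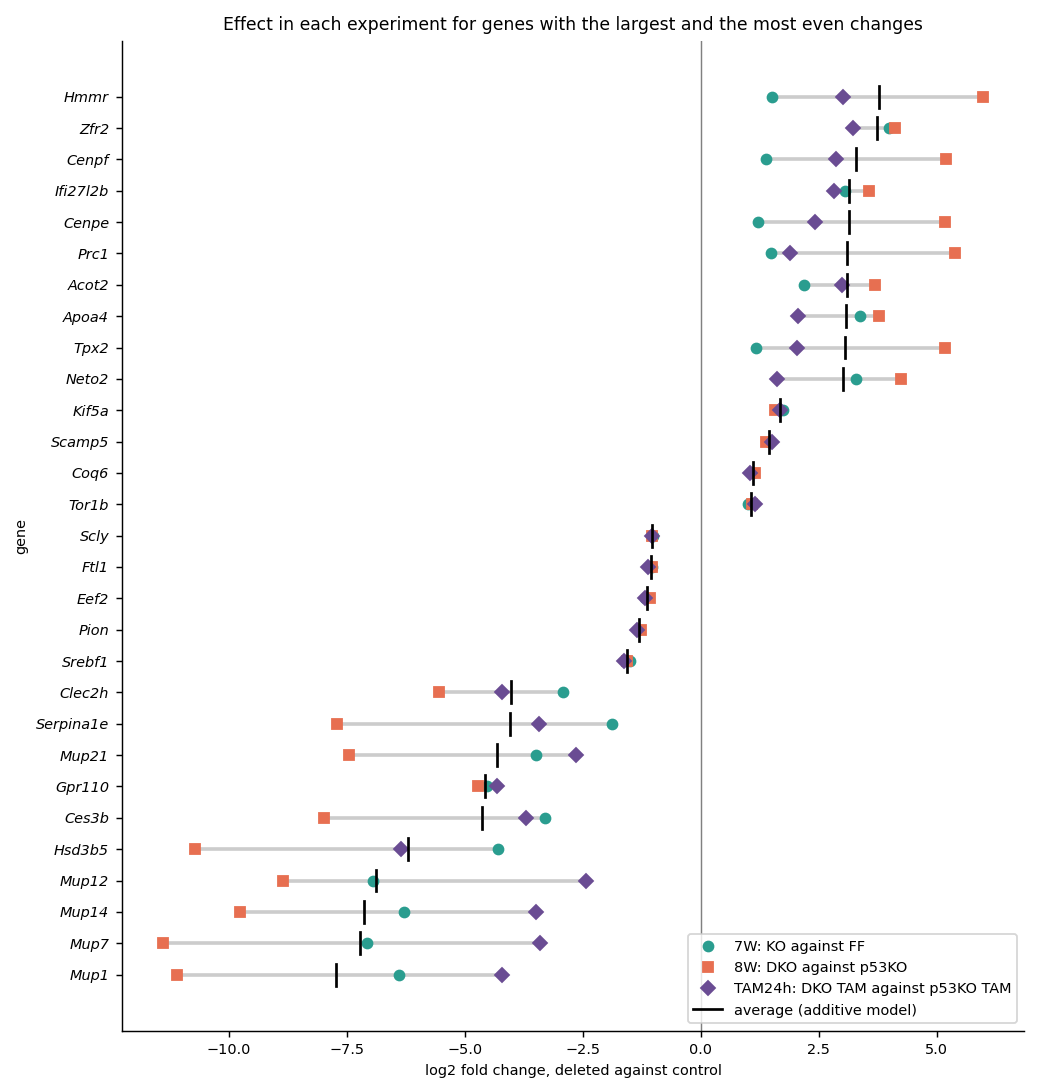
Log2 fold change (x axis, deleted against control) in each experiment for the consistent genes named for the largest or the most even effects that had more than 3 counts in every group (y axis); circles are the 7-week, squares the 8-week and diamonds the tamoxifen experiment, and black ticks are the average. Gpr110 spans -4.71 to -4.32, whereas Mup7 spans -11.40 to -3.42 and Hmmr 1.52 to 5.99.

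Many consistent genes differed in the size of their effect between experiments. The effect differed between experiments for 3936 of all genes tested (28.7%; edgeR's test with 2 degrees of freedom). Among them were 845 consistent genes (6.17% of those tested), namely 269 of the consistent genes that rose (21.8%) and 576 of those that fell (37.1%). The count over all genes became 2581 without DKO replicate 3. The 8-week experiment had the largest of the 3 effects for 721 of the 1235 higher and 1142 of the 1553 lower consistent genes, and the median effects by experiment were 0.72, 1.12 and 0.70 for the higher and -0.54, -0.98 and -0.56 for the lower genes. The number of genes called was 2026 at 7 weeks (14.8% of those tested), 7041 at 8 weeks (51.4%) and 2559 after tamoxifen (18.7%). Without the 8-week experiment 1470 genes were called higher and 1585 lower for the average. The 3 experiments share no library. Of the genes called lower at 7 weeks 80.7% were also called lower at 8 weeks, which is 24.7% of the larger 8-week list, and 52.6% were called lower after tamoxifen, 41.2% of that list. Of those called higher at 7 weeks, 56.4% were called higher at 8 weeks (15.2% of that list) and 42.2% after tamoxifen (33.9%). Over all genes tested, 25.7% were called lower at 8 weeks and 10.1% after tamoxifen, and 25.7% and 8.61% were called higher. Opposite calls were made for 56 of the genes higher at 7 weeks at 8 weeks and for 24 after tamoxifen. For the genes lower at 7 weeks these numbers were 21 and 11.

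For 267 genes (1.95%) an average hides opposite effects: they were called higher in 1 experiment and lower in another. Mbl2, a mannose-binding lectin, stood at 242 and 248 CPM in FF and 699 and 596 in KO livers. The 8-week values were 123 and 126 CPM in p53KO and 46.6 and 33.0 in DKO livers, and the tamoxifen values 160 and 163 in p53KO TAM and 72.8 and 59.7 in DKO TAM livers. It was higher in KO and lower in both other deleted groups (1.40, -1.65 and -1.28; adjusted p = 3.6e-07 for the difference), so the average of -0.56 ± 0.45 did not pass (adjusted p = 0.35). The choline kinase Chka was called higher at 7 and 8 weeks and lower after tamoxifen (1.99, 2.24 and -0.61); its average passed at an adjusted p of 0.044, which rose to 0.072 to 0.135 when a library of the 7-week or 8-week experiment was left out. The matrix protein gene Fbn1 had effects of 0.57, 2.56 and -0.78 and the glutamate cyclase gene 9030617O03Rik, also known as Dglucy, of 1.65, -0.86 and 0.98.

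The effect differed with the level of a gene in control liver. Genes were split into 10 equal groups by CPM per kb of exon in the controls of 1 experiment, and the effect was taken from the other 2. With FF as the reference, the median effect fell from 1.22 in the lowest group through 0.07 in the fifth to -0.50 in the highest. With p53KO as the reference it fell from 0.40 to -0.16, and with p53KO TAM from 1.20 to -0.41. These medians are on the TMM scale. With library totals alone, added after the data were seen, the highest group stood at 0.05, 0.14 and 0.10 in the same order of references, against 0.58, 0.32 and 0.54 for all genes, so that its median was lower than that of all genes but not below 0. Of the highest group 26.8%, 14.7% and 20.1% were called lower with TMM in both experiments whose controls did not set the level, against 6.89%, 4.15% and 6.36% of all genes; 0.584%, 1.825% and 1.825% were called higher, against 4.45%, 2.92% and 3.90%. Genes of low level could pass the expression filter through the groups in which they are high, so the values of the lowest groups are partly set by that filter. The sizes of the genes were alike: the median genomic span was 22579 bases for consistent genes higher, 24107 for those lower and 21904 for all tested, and the median exon length 2941, 2849 and 2871 bases.

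**Figure D5:**
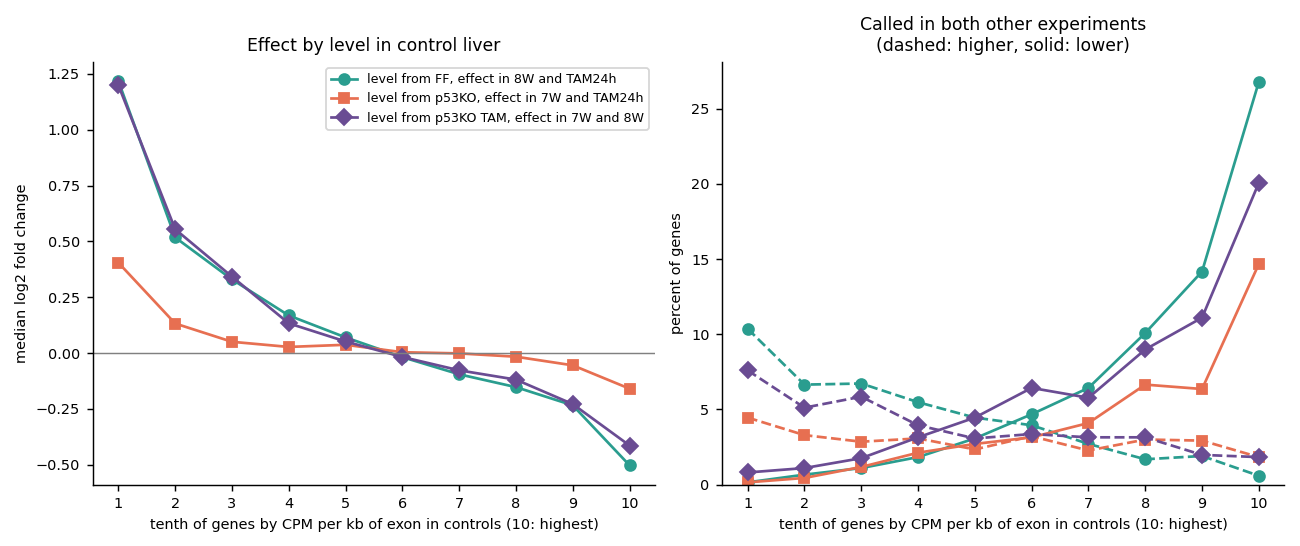
Genes in 10 groups by control level (x axis, CPM per kb of exon, 10 highest), with the level taken from the controls of 1 experiment. The left panel plots the median log2 fold change of the other 2 experiments, which falls from 1.22 to -0.50 with FF as reference, and the right panel the percent of genes called higher (dashed) or lower (solid) in both of these, which reaches 14.7% to 26.8% lower in the highest group.

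Markers of the cells in whole liver moved as well. Of 15 hepatocyte markers 13 fell (17.5% of all genes) and none rose (16.8%) on average, with a median of -1.32. Their summed level (here CPM of library totals, without TMM) was 110400 to 122900 CPM in control and 57310 to 84210 in deleted libraries. The asialoglycoprotein receptor subunit Asgr1 fell by 1.32 (SE 0.18) and tyrosine aminotransferase (Tat) by 1.54 (SE 0.20), each in each experiment. Of 23 macrophage markers 16 rose (16.8% of all genes) and none fell (17.5%), 8 consistently (9.02%), and none was called in each experiment. Among these markers 2 were called higher at 7 weeks (6.92% of all genes), 20 at 8 weeks (25.7%) and 4 after tamoxifen (8.61%). The sum of their levels was 785 to 847 CPM in FF, 1169 to 1185 in KO, 694 to 745 in p53KO, 2335 to 2462 in DKO, 864 to 962 in p53KO TAM and 1342 to 1366 in DKO TAM livers. Vsig4, a complement receptor of Kupffer cells, rose by 0.66 ± 0.11 (adjusted p = 0.00070). Of 25 stellate cell and fibroblast markers 6 rose on average, among them Pdgfra (1.20 ± 0.25) and Hgf (0.89 ± 0.16), but 23 were called higher at 8 weeks (25.7% of all genes), 2 at 7 weeks (6.92%) and 2 after tamoxifen (8.61%), where 3 were called lower. Their sum was 699.5 to 883 CPM in FF, 1083 to 1275 in KO, 495 to 516.5 in p53KO and 2908 to 3129 in DKO livers. After tamoxifen it overlapped, at 735 to 771 in p53KO TAM and 766 to 1073 in DKO TAM livers. Of 11 cholangiocyte markers tested 6 rose and 1 fell on average. At 8 weeks 9 were called higher (25.7% of all genes), after tamoxifen 1 (8.61%) and at 7 weeks none (6.92%). Their sum was 82.0 to 151 CPM in FF and 135 to 179 in KO livers, which overlapped, 57.5 to 59.4 in p53KO and 407 to 458.8 in DKO, and 44.6 to 58.7 in p53KO TAM and 83.1 to 104 in DKO TAM livers. Among 23 genes of fetal liver and of liver tumours, 16 were called higher on average, 20 at 8 weeks (25.7% of all genes) against 3 at 7 weeks (6.92%) and 5 after tamoxifen (8.61%), including Cd24a (2.54 ± 0.56; effects of 1.09, 5.01 and 1.65). Of 22 endothelial markers 10 fell and none rose on average, among them the VEGF receptor Kdr (-0.73 ± 0.12). At 7 weeks 1 was called higher and none lower, at 8 weeks 3 higher and 7 lower (25.7% each of all genes). After tamoxifen none was called higher and 10 lower (10.1%). Their sum was 1161 to 1385 CPM in FF, 1284 to 1503 in KO, 1166 to 1215 in p53KO and 1652 to 1824 in DKO livers. It was 1185 to 1346 in p53KO TAM and 1030 to 1095 in DKO TAM livers. With library totals 4 markers rose (54.8% of all genes), none fell and the call of Kdr was lost (adjusted p = 0.056). The part that a change in the mix of cells has in the lower hepatocyte genes and the higher mitosis genes was not tested.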

How the data were processed

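Total RNA of whole liver was sequenced as 12 libraries made with a stranded total RNA kit. The submitters' processing notes list CASAVA 1.82, HISAT2 and featureCounts, with the build mm10 (GRCm38); per the file headers of the 4 libraries taken at 7 weeks, featureCounts was version 1.6.4, run with no option for strand. The authors deposited raw counts of reads per gene, and reads of overlapping, antisense or near-identical genes may be shared between them or lost.

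Libraries were grouped by their titles. In edgeR 4.0.16 (R 4.3.3), low genes were dropped with filterByExpr (minimum count 10, by group), libraries scaled by TMM and fitted with a robust quasi-likelihood model. The average effect came from an additive design of experiment and deletion (8 residual degrees of freedom), and the effects by experiment and their difference from 6 group means (6 residual degrees of freedom). Adjusted p-values (Benjamini-Hochberg, over all genes tested) are from edgeR's quasi-likelihood test, and SE is the effect over the square root of F. All groups share 1 estimate of the spread. Shares of counts were compared with an exact permutation test within experiments. The method was tested on simulated counts.

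The comparison, the gene lists and the rule for named genes were chosen with earlier results of these data known. The rule took Polr2m, Trp53 and Polr2a, and among consistent genes up to 12 per direction with the largest average effect (protein-coding, at least 5 CPM), 6 most abundant and 5 most even with at least a 2-fold change. It also took 6 genes with opposite calls and up to 4 per list with the smallest p; fewer are printed. List counts and medians carry no test of the list. Gene classes and promoters are from RefSeq.

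Alternatives were 3 other scalings, no or a stricter expression filter, DESeq2 1.42.0, limma-voom (limma 3.58.1), group means for the average, each experiment fitted alone, the replicate number as a block, leaving out each library or experiment, leaving out ribosomal RNA, mitochondrial and haemoglobin genes, an adjusted p of 0.01 and a 2-fold minimum. DKO replicates carry the numbers 2 and 3 in titles, used as names here, and 1 and 2 in descriptions, used for the block.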

Additional observations from a re-analysis of the deposited data

Results flagged for a closer look

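The effect of the deletion differed between the 3 experiments for 3936 genes (28.7% of those tested), among them 48 of the genes named above. The values that follow are adjusted p-values of edgeR's test that the 3 effects are equal, and each gene is listed because it passed 0.05. Among genes of cell division and DNA repair these were Hmmr (9.5e-06), Cenpf (0.0035), Cenpe (0.00036), Prc1 (5.3e-05), Tpx2 (0.031), Pcna (0.00043) and Brca1 (1.4e-05). Among the other genes that rose they were Cxadr (0.0089), Slc16a1 (0.0013), Cd24a (0.0011), Hgf (0.0044), Pdgfra (0.00032) and Vsig4 (0.013). Among secreted proteins they were Alb (0.0046), Pzp (0.00014), Mug1 (2.4e-06), Trf (0.02), Serpina1e (2.2e-07), F11 (0.00015) and Crp (0.0032). Among male-biased genes and others with large decreases they were Mup7 (0.037), Mup21 (0.003), Sult5a1 (0.033), Ces3b (0.00065), Slc22a28 (0.011), Clec2h (0.034), Slco1a1 (1e-05) and Gstp1 (0.0012). Among metabolic enzymes and transporters they were Cyp2c29 (0.03), Ahcy (0.0001), Uroc1 (0.00037), Hal (0.024), Slco2b1 (0.00089), Baat (0.011), Acacb (0.0042), Thrsp (0.0072), Scd1 (0.022), Gckr (0.0065), Gbe1 (0.034) and Tat (0.0056). Among transcription, stress and receptor genes they were Tcea3 (0.0032), Foxa1 (0.0022), Herpud1 (0.025) and Asgr1 (0.00042). Genes called in opposite directions were Mbl2 (3.6e-07), Chka (3.6e-07), Fbn1 (1.8e-06) and 9030617O03Rik (1.9e-06). The experiments differ in p53, age and the time since deletion together, and these cannot be told apart. At 8 weeks the effect on each of the 7 cell division and DNA repair genes was the largest of the 3. Groups of 2 libraries are too small for a check of single libraries that stand apart.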

How the results depend on the processing

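The split between higher and lower genes depended on the scale. With library totals alone, 7506 genes were called higher and 737 lower for the average, 4584 and 428 were consistent, and 1712 and 186 were called in each experiment. RLE and upper quartile scaling, both expression filters, DESeq2, limma-voom and group means kept every count they gave within 1.5 times. Upper quartile scaling still turned the balance for the average, with 2942 genes higher and 1933 lower, against 2295 and 2395 with TMM. On that scale 1641 were consistent higher and 1258 lower, against 1235 and 1553. An adjusted p of 0.01 gave 1118 and 1330 for the average, 95 and 244 in each experiment and 2168 genes whose effect differed. A 2-fold minimum gave 987 and 565 for the average, 529 and 457 consistent, and 138 and 163 in each experiment. Without the 8-week experiment 1470 and 1585 were called for the average.

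Leaving out 1 library at a time gave 1763 to 2277 genes higher and 1804 to 2312 lower for the average, 1205 to 1444 and 1427 to 1718 consistent, 149 to 242 and 323 to 499 in each experiment, and 2581 to 3781 whose effect differed. Without the 7-week, 8-week or tamoxifen experiment the albumin share differed by -3.92, -3.30 and -2.86 percentage points, and that of the 100 abundant genes by -12.6, -8.18 and -12.4, each with an exact permutation p of 0.0556, the smallest that 36 arrangements allow.

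Same-numbered libraries shared little common deviation (r = 0.11 at 7 weeks, -0.07 at 8 weeks and -0.01 after tamoxifen), so the numbers were not taken as pairs. With the replicate block the average had 1426 genes higher and 1644 lower, against 2295 and 2395 without it. The block gave 1051 and 1325 consistent, 253 and 481 called in each experiment and 3701 whose effect differed. Of 105 genes checked one by one, 94 kept their direction and their side of the threshold under all settings other than the adjusted p of 0.01. The average effect turned to 0.0816 for Mbl2 and -0.12 for Fbn1 without the 8-week experiment; the cause was not tested. Eda2r lost its call with group means (adjusted p = 0.264).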
